A study of Mus musculus with 10 samples.

Results

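Genes of glutamate uptake and recycling were followed through maps of 4 histone H3 modifications in Glast+ cells of the mouse retina. The 6 genes were chosen by name out of 21887 protein-coding genes on the mapped chromosomes: Slc1a3, Glul, Slc1a2, Slc38a3, Slc7a11 and Slc1a1. The cells came from C57BL/6 mice at postnatal day 28 and carried no treatment or engineered allele that the labels name. Chromatin of 25000 cells was immunoprecipitated (ChIP-seq) in 2 experiments called Exp1 and Exp2, and the labels do not say which or how many animals each drew on. The marks were H3K4me3, typical of active promoters, H3K4me1, typical of enhancers and promoter flanks, H3K27me3, the product of Polycomb repressive complex activity, and H3K9me3, found in heterochromatin. The data are 8 lists of enriched regions, called islands, with a position and a p-value each. They hold no read counts, so the depth behind an island is unknown.

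Müller glia are the radial glia of the retina and clear glutamate from its synapses. Glutamate enters through the Na+-coupled transporter GLAST (Slc1a3) and is turned into glutamine by glutamine synthetase (Glul). The glutamine leaves through SNAT3 (Slc38a3) and is taken up by neurons, which make glutamate from it again. The transporter GLT-1 (Slc1a2) is found in the retina mainly in cones and bipolar cells, and EAAC1 (Slc1a1) mainly in inner retinal neurons. xCT (Slc7a11) exchanges cystine for glutamate and so feeds glutathione synthesis. GLAST is also the surface protein by which the cells were collected, so the presence of Slc1a3-expressing cells was set by the isolation.

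Markers of Müller glia and of several other retinal cell types carried H3K4me3. The mark lay at an end of 10 of 12 Müller glia markers in both experiments, a list that includes Glul and Slc1a3 themselves, with Aqp4 and Abca8a as the exceptions, and of 0 of 4 astrocyte and 0 of 5 microglia markers. It lay at 6 of 8 rod markers, including Nrl but not Sag and Nr2e3, and at 6 of 6 cone markers. Likewise it lay at 5 of 6 bipolar, 4 of 5 amacrine, 2 of 5 ganglion cell, 1 of 4 endothelial and 2 of 4 pigment epithelium markers. Over all protein-coding genes the share was 58.6%. H3K27me3 lay at an end of 2 Müller glia, 0 rod, 2 cone, 3 bipolar, 3 amacrine and 4 ganglion cell markers of the same lists. It also lay at 1 astrocyte, 1 microglia, 0 endothelial and 1 pigment epithelium marker, against 23.3% of all genes. The share of other cells is not known, and their part in the marks at the 6 genes was not tested. Exp1 listed 52342 H3K4me1 islands and Exp2 37200, while the H3K4me3 lists held 16761 and 20169.

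In all, 5 of the genes carried H3K4me3 at an annotated end, and 0 carried H3K27me3 or H3K9me3 there. For this count, islands of both experiments had to touch the stretch from 1 kb before to 1 kb after the same gene end. H3K4me3 was at 5 of the 6 genes, all but Slc7a11, against 58.6% of all protein-coding genes. H3K4me1 was at 4 of 6, Glul, Slc1a2, Slc38a3 and Slc1a1, against 54.6%. H3K27me3 was at 0 of 6, against 23.3%, and H3K9me3 at 0 of 6, against 13.4%. The combination of H3K4me3 and H3K27me3 at the same end, called bivalent, was at 0 of 6, against 5.74%. Somewhere inside the annotated gene, H3K4me3 was present in both experiments at all 6 genes, against 62.5% of protein-coding genes. With 6 named genes and 2 experiments, no test of these shares was made.

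**Figure D1:**
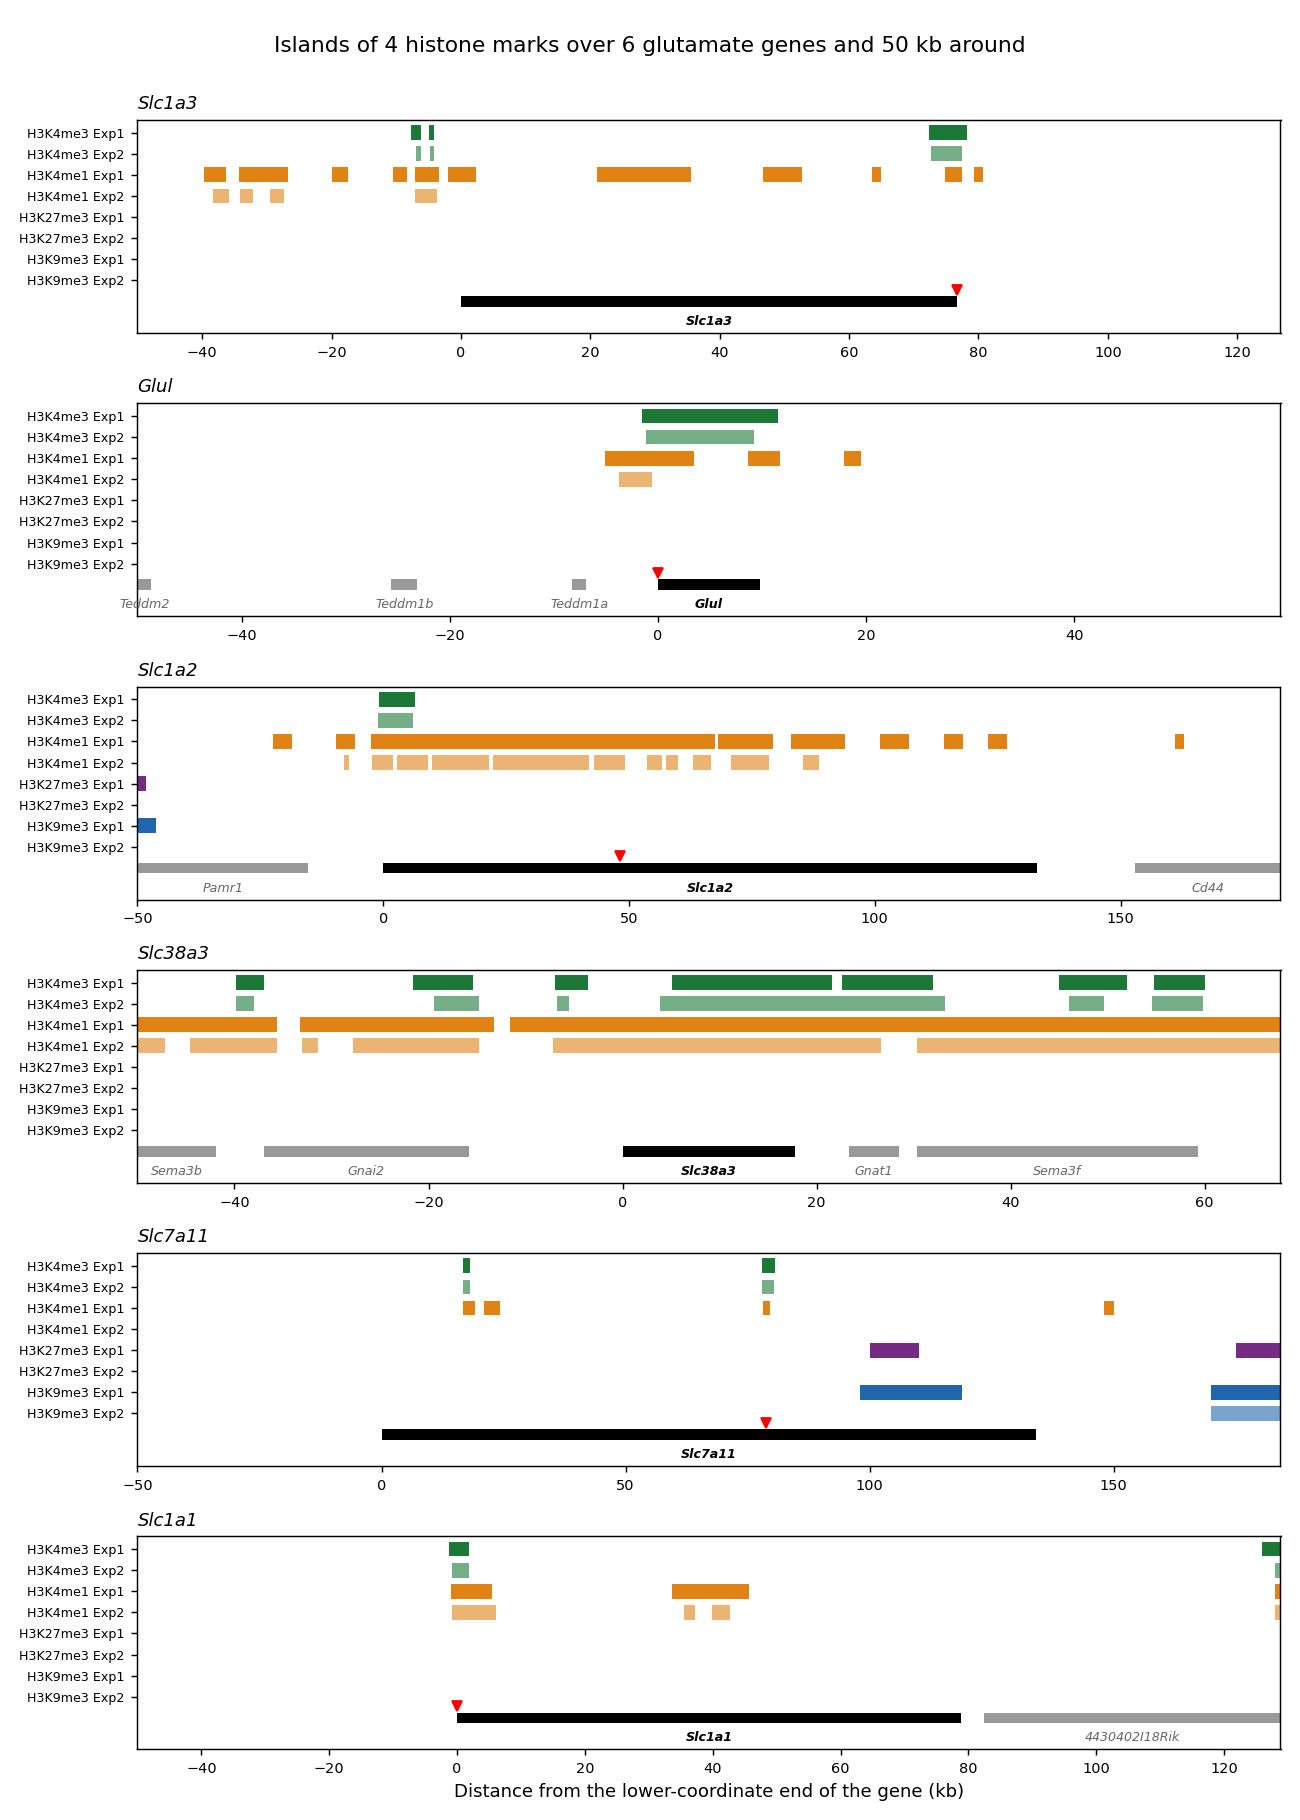
Islands of each mark and experiment (coloured bars) along each gene (black bar) and 50 kb on both sides, against distance in kb from the gene's lower-coordinate end. Grey bars are neighbouring protein-coding genes, red triangles are starts in the RefSeq promoter table, and islands that run past the 50 kb are drawn to its edge. Glul is almost filled by H3K4me3, Slc1a2 and Slc38a3 lie in long stretches of H3K4me1, and repressive islands appear in the panels of Slc7a11 and, at the margin, Slc1a2.

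The promoter sequences show the 250 bases before a start and not the whole DNA under these islands. RefSeq promoter entries (GRCm38.p6) matched 5 of the 6 genes. The 250 bases before each start are printed because the start of 4 of them lay under H3K4me3 in both experiments, while the start given for Slc1a2 did not. They read 5′ to 3′ on the gene's strand, and capitals mark matches to the motifs named after them.
Slc1a3, chr15:8710808-8711057, minus strand: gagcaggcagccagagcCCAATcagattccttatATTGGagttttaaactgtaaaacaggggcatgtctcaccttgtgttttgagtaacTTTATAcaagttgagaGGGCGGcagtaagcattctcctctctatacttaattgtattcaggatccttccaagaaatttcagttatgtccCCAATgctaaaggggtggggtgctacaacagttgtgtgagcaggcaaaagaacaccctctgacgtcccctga
Glul, chr1:153899679-153899928, plus strand: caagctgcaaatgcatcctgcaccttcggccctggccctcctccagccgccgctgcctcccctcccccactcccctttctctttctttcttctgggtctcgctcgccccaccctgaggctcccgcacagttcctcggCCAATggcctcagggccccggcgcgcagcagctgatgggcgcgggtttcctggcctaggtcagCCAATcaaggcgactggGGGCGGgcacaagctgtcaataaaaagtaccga
Slc1a2, chr2:102706188-102706437, plus strand: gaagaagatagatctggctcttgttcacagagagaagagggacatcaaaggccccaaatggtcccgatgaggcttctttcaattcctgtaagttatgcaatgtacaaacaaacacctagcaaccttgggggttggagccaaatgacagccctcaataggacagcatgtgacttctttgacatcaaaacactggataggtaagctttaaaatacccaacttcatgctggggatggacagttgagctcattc
Slc7a11, chr3:50443614-50443863, minus strand: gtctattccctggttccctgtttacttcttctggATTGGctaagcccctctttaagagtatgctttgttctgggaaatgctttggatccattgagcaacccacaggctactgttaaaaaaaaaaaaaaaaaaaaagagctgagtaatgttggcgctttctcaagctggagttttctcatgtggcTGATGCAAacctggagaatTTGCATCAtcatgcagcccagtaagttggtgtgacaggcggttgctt
Slc1a1, chr19:28834885-28835134, plus strand: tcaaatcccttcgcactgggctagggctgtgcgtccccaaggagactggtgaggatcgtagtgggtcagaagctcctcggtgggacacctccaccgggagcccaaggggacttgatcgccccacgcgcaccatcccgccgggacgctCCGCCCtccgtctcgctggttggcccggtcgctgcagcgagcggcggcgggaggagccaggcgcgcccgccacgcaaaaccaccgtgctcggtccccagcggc

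The promoters differed widely in base composition. The CpG ratio, the CpG count over that expected from the C and G content, was 0.873 for Slc1a1, with 27 CpGs, and 0.601 for Glul, with 15 CpGs. It was 0.16 for Slc1a3 and 0.172 for Slc7a11, with 2 CpGs each, and 0.0798 for the Slc1a2 start, with 1 CpG. Among all 21255 promoter entries of protein-coding genes, 94.6% of the 9506 with a ratio of 0.6 or more had H3K4me3 within 1 kb in both experiments, against 31.7% of the 11749 below it, a split added after the files were seen. Slc1a3 and Slc7a11 thus carried H3K4me3 on promoters of the class in which a minority is marked.

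Short motifs were searched on both strands, as letters and not as binding sites. The amino acid response element TGATGNAA, through which ATF4 is known to act on Slc7a11, occurred in the Slc7a11 promoter, from 66 to 59 and from 47 to 40 bases before the start, and in 3.18% of all promoters. CCAAT occurred in Slc1a3, Glul and Slc7a11 (35.4% of promoters), GGGCGG in Slc1a3, Glul and Slc1a1 (42.6%) and TATAAA in Slc1a3, on the opposite strand (11.6%). The E-box CACGTG (6.63%), TGACNNNGC of the antioxidant response element (10.4%), ACAATG of Sox factors (9.35%), the palindromic nuclear factor I motif (0.0329%) and the palindromic glucocorticoid response element (0.00941%) were in none of these 5 windows. No 2 matches overlapped.

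Slc1a3, the GLAST gene, combined a wide promoter island with a stretch of H3K4me1 and small H3K4me3 islands beyond its 3′ end. The gene lies on chromosome 15, 8634124 to 8710807, and is read from the upper end. Its H3K4me3 island at that end was 6 kb wide in Exp1, with a listed p-value of 8.98e-263, and 4.8 kb in Exp2, with 3.65e-171. It reached 4.41 and 4.01 kb into the gene and 1.59 and 0.793 kb upstream, over the end of the lncRNA gene Gm31340, which lies 219 bp away and was picked after its position was seen. The mean width of 5.4 ± 0.849 kb (SD, n = 2) ranked 1549th of the 12823 genes with H3K4me3 at an end, wider than 87.2% of them.

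H3K4me1 at Slc1a3 differed more between the experiments than H3K4me3 did. Exp1 had 11 islands in the gene and 50 kb around and Exp2 had 4, and inside the gene they covered 33.8% in Exp1 and 0% in Exp2. Exp1 listed a promoter island of 2.6 kb and an island of 4.2 kb over the 3′ end. Exp2 listed neither, which is why Slc1a3 is not among the genes with H3K4me1 at an end. In total, 3 regions over 2.5 kb from any annotated gene end were covered in both experiments, and all lay beyond the 3′ end, at 32.1, 27.3 and 3.72 kb from it. The count was 7 in Exp1 alone and 3 in Exp2 alone, and 1 with 25 kb around the gene in place of 50 kb. The nearest, 3.4 kb wide, also held H3K4me3 over 1.4 kb in both experiments. There the H3K4me3 islands were small, 1.6 and 0.8 kb wide in Exp1 and 0.8 and 0.6 kb in Exp2, with listed p-values between 9.05e-24 and 4.93e-09.

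Slc1a2, the GLT-1 gene (chromosome 2, 102658239 to 102790784, plus strand in the promoter table), had the longest H3K4me1 domain of the uptake transporters. Its H3K4me3 islands at the lower end were 7.4 kb in Exp1 and 7.2 kb in Exp2, both with a p-value listed as 0. Their mean of 7.3 ± 0.141 kb (SD, n = 2) was wider than 95% of marked genes. An H3K4me1 island of 69.8 kb in Exp1 began upstream of that end and ran across the first part of the gene. In Exp2 the same stretch was listed as 8 separate islands, 4.2, 6.4, 11.6, 19.4, 6.4, 3.2, 2.4 and 3.6 kb wide, with gaps from 0.8 kb upwards. Joined over gaps of up to 2 kb, a step added after the files were seen, the domain was 81.6 kb in Exp1 and 51.4 kb in Exp2.

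Islands of H3K4me1 covered 77.8% of the Slc1a2 gene in Exp1 and 49.6% in Exp2. Of the 1700 protein-coding genes at least as long, Slc1a2 included, 39 (2.29%) had as much of their length covered in both experiments. Slc1a2 had 7 distal H3K4me1 regions in the gene and 50 kb around, 6 of them inside it, which is 3.01 per 100 kb and more than in 91.9% of protein-coding genes. Most of those inside lay within the 69.8 kb island of Exp1, which Exp2 listed in pieces. The number of regions thus depends on how islands were split. Slc38a3, with 82.9% or more of the gene and 50 kb around under H3K4me1, had 1 such region. Of the 7 regions of Slc1a2, the one of 6.4 kb holds the start in the promoter table, since distance was measured to gene ends alone. That start lies 48.2 kb inside Slc1a2, without H3K4me3 in either experiment and with H3K4me1 in both. The H3K4me3 of Slc1a2 therefore lay at the lower gene end and not at that start. An end of the lncRNA gene LOC115489466 lay under the same H3K4me3 islands in both experiments. That gene lies inside Slc1a2 and was picked after its position was seen.

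Slc1a1, the EAAC1 gene (chromosome 19, 28835135 to 28913960, plus strand), had an H3K4me3 island of ordinary width. It measured 3.2 kb in Exp1, with a listed p-value of 2.69e-212, and 2.6 kb in Exp2, with 5.43e-214. The mean of 2.9 ± 0.424 kb (SD, n = 2) was wider than 40.3% of marked genes. H3K4me1 islands at the same end were 6.4 kb in Exp1 and 6.8 kb in Exp2 and ran 5.46 and 6.07 kb into the gene. A further H3K4me1 stretch lay about the middle of the gene, 12 kb wide in Exp1 and split into islands of 1.8 and 2.8 kb in Exp2.

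Glul, the glutamine synthetase gene (chromosome 1, 153899929 to 153909723, plus strand), was covered by H3K4me3 over nearly its whole length. The island was 13 kb wide in Exp1 and 10.4 kb in Exp2, both with a p-value listed as 0, and covered 100% and 94.7% of the gene. Of the 14059 protein-coding genes at least as long, Glul included, 7 had as much of their length under H3K4me3 in both experiments. Covering a longer gene takes more island length, and the median width at marked ends was 3.2 kb, which limits this count. The mean width at Glul, 11.7 ± 1.84 kb (SD, n = 2), ranked 146th of 12823. The end of the lncRNA gene Gm38440, 153 bp before Glul and picked after its position was seen, lay under the same island.

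H3K4me1 at Glul differed between the experiments. The island at the lower end was 8.6 kb in Exp1 and reached 3.47 kb into the gene, and in Exp2 it was 3.2 kb and stopped 0.529 kb before the gene. Exp1 had a further island of 3 kb at the upper end and 1 of 1.6 kb beyond it, and Exp2 had neither. Glul had 0 distal H3K4me1 regions in both experiments within 50 kb, where the median gene had 1, and Exp1 alone gave 1.

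Slc38a3, the SNAT3 gene (chromosome 9, 107651154 to 107668968), had the widest islands of the 6 genes, in a crowded neighbourhood. The H3K4me3 island over its upper end was 16.6 kb in Exp1 and 29.4 kb in Exp2, both with a p-value listed as 0, and covered 71.7% and 78.4% of the gene. In Exp2 that island also held the ends of Gnat1, which encodes the rod transducin alpha subunit and begins 5.47 kb away, and an end of Sema3f, a secreted semaphorin gene. In Exp1 Gnat1 had a separate island of 9.4 kb. The mean of 23 ± 9.05 kb (SD, n = 2) ranked 20th of 12823, with the island of Exp2 spanning Gnat1 as well.

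The H3K4me1 island over Slc38a3 was 101.8 kb in Exp1 and 33.8 kb in Exp2, and the whole gene lay inside it in both. Of the 10722 protein-coding genes at least as long, Slc38a3 included, 7 were likewise covered in full by H3K4me1. This count too is limited by gene length, since the median H3K4me1 width at marked ends was 4.7 kb. In Exp1 the H3K4me1 island over Slc38a3 also reached the ends of Gnat1, Sema3f and Rbm5, and in Exp2 an end of Gnat1. Of the gene and 50 kb around, H3K4me1 covered 96.6% in Exp1 and 82.9% in Exp2. Gnat1 is itself 1 of the 6 rod markers with H3K4me3, and the part of rods in these widths was not tested.

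**Figure D2:**
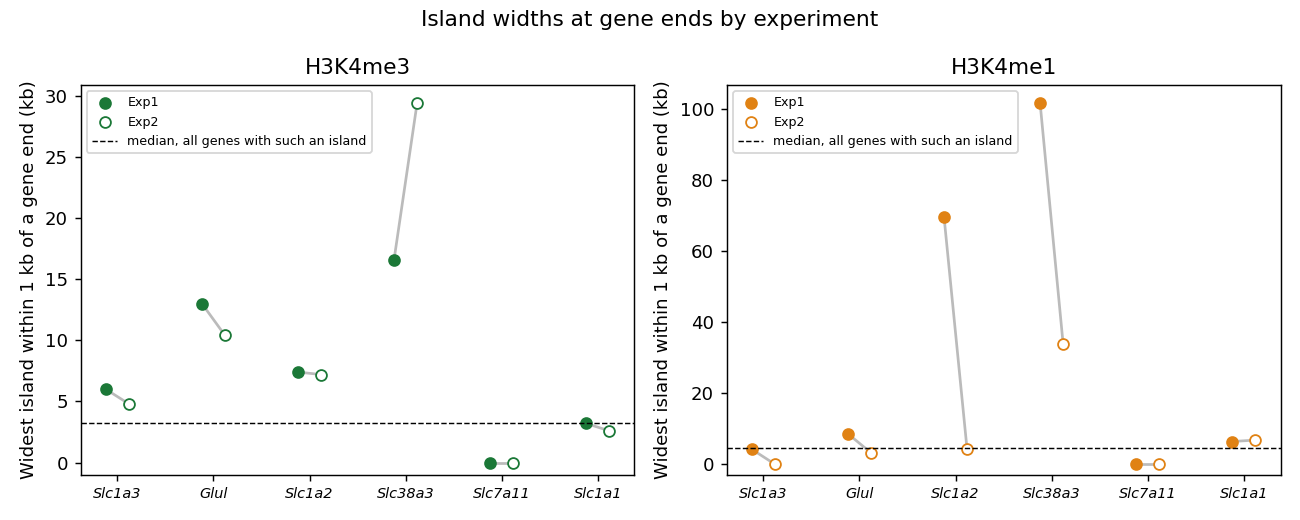
Width in kb of the widest H3K4me3 (left) and H3K4me1 (right) island within 1 kb of a gene end, for each gene and experiment, with Exp1 as filled and Exp2 as open points and 0 where there was none. The dashed line is the median of all genes with such an island, 3.2 kb for H3K4me3 and 4.7 kb for H3K4me1, and grey lines join the experiments. The plotted H3K4me1 widths of Slc1a2 and Slc38a3 differ most between experiments. The Exp2 point of Slc1a2, 4.2 kb, is a piece of a stretch that Exp1 listed as a single island. Joined over gaps of up to 2 kb, that stretch was 81.6 kb in Exp1 and 51.4 kb in Exp2. By shared H3K4me1 length, Slc38a3 (0.858) and Slc1a2 (0.595) differed least of the 6.

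Slc7a11, the xCT gene (chromosome 3, 50364936 to 50499087), was the exception at its annotated ends. Neither end had an island of any mark in either experiment. The start in the promoter table lies 78.7 kb from the lower end and 55.5 kb from the upper, inside the annotated gene, and an H3K4me3 island covered it in both experiments. That island was 2.6 kb wide in Exp1, with a listed p-value of 3.57e-08, and 2.4 kb in Exp2, with 3.25e-10. It was weak in its lists, where 7.18% of the Exp1 islands and 21.9% of the Exp2 islands had a higher p-value. A second H3K4me3 island of 1.4 kb, 16.7 kb from the lower end, was listed in both experiments, with p-values of 2.82e-06 and 2.78e-17.

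Taking starts from the promoter table in place of gene ends moved 2 of the genes. H3K4me3 then lay within 1 kb of a start at 4 of 5 genes, Slc1a3, Glul, Slc7a11 and Slc1a1, against 60.2% of the 17492 protein-coding genes with an entry. Slc7a11 gained the mark and Slc1a2 lost it. H3K4me1 over the Slc7a11 start was listed in Exp1, 1.4 kb wide, and not in Exp2, where the gene and 50 kb around held 0 H3K4me1 islands against 4 in Exp1.

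Repressive islands were scarce around these genes. H3K27me3 and H3K9me3 were absent from the gene and 50 kb around in all 4 lists at 4 of 6 genes, Slc1a3, Glul, Slc38a3 and Slc1a1, against 37.8% of protein-coding genes. The median share of that stretch under H3K27me3 was 0% for the 6 genes and 5.59% for all genes, and the medians for H3K9me3 were both 0%. Island edges move in steps of 5000 bp for H3K27me3 and 3000 bp for H3K9me3, so distances to them are coarse.

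The nearest H3K27me3 island to Slc1a3 lay 194 kb away in Exp1 and 554 kb in Exp2, and the nearest H3K9me3 island 57.1 and 81.1 kb. For Slc1a1, H3K27me3 lay 675 kb away in Exp1 and 771 kb in Exp2, and H3K9me3 677 and 771 kb. At Slc1a2 the stretch was touched at its margin, 48.2 kb away by H3K27me3 and 46.2 kb away by H3K9me3, in Exp1 with none in Exp2, where the nearest islands lay 1458 and 1141 kb away.

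Slc7a11 had repressive islands inside the gene and beyond its upper end. Inside, Exp1 listed an H3K27me3 island of 10 kb, with a p-value of 3.59e-32, and an H3K9me3 island of 21 kb, with 9.32e-28. Exp2 listed neither. Beyond the upper end an H3K9me3 island of 63 kb began 35.9 kb away in both experiments, with the same listed borders, and Exp1 had H3K27me3 over 60 kb there. Both of the islands inside the gene lay upstream of the start in the promoter table, which is on the minus strand.

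**Figure D3:**
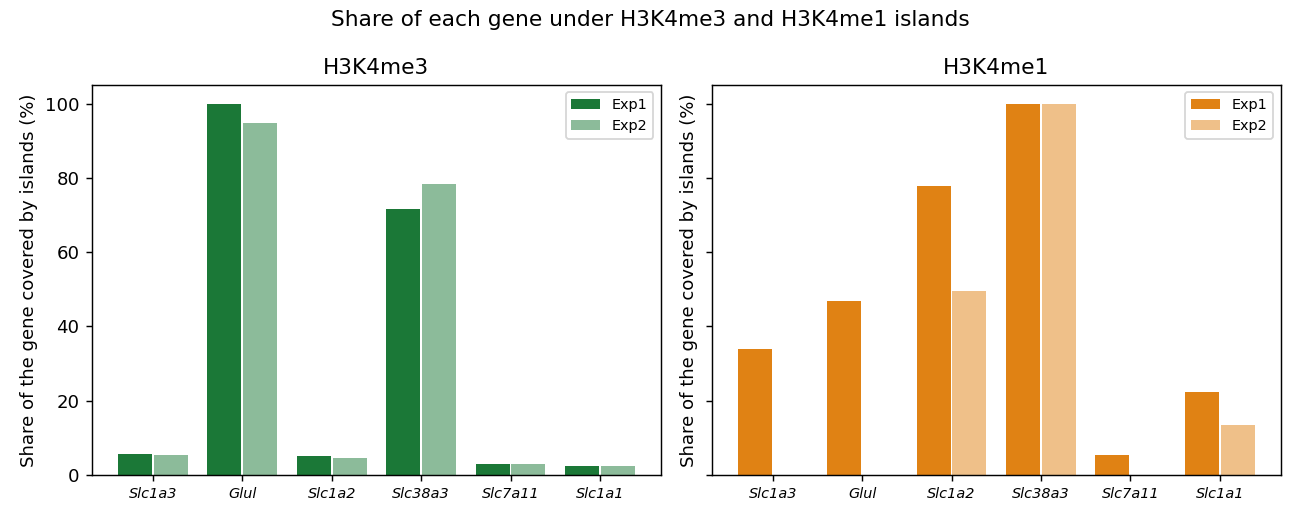
Share of each gene's length, in percent, under H3K4me3 (left) and H3K4me1 (right) islands in Exp1 (dark bars) and Exp2 (light bars). Glul at 100% and 94.7% and Slc38a3 at 71.7% and 78.4% stand above the others for H3K4me3, and Slc38a3 and Slc1a2 for H3K4me1.

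In widths at gene ends, the 5 marked genes ran from ordinary to extreme. Their median mean H3K4me3 width was 7.3 kb, against 3.2 kb over all marked genes, with the narrowest at Slc1a1 and the widest at Slc38a3. Slc7a11, which has no island at an end, is not in that median. The order was Slc38a3, Glul, Slc1a2, Slc1a3 and Slc1a1. The values of the experiments did not overlap between neighbours in this order, since the smaller of Slc38a3 (16.6 kb) exceeded the larger of Glul (13 kb), the smaller of Glul (10.4 kb) that of Slc1a2 (7.4 kb), the smaller of Slc1a2 (7.2 kb) that of Slc1a3 (6 kb), and the smaller of Slc1a3 (4.8 kb) that of Slc1a1 (3.2 kb). The order was set by these same widths, and how often other marked genes separate in this way was not counted. With 2 experiments this is a description.

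**Figure D4:**
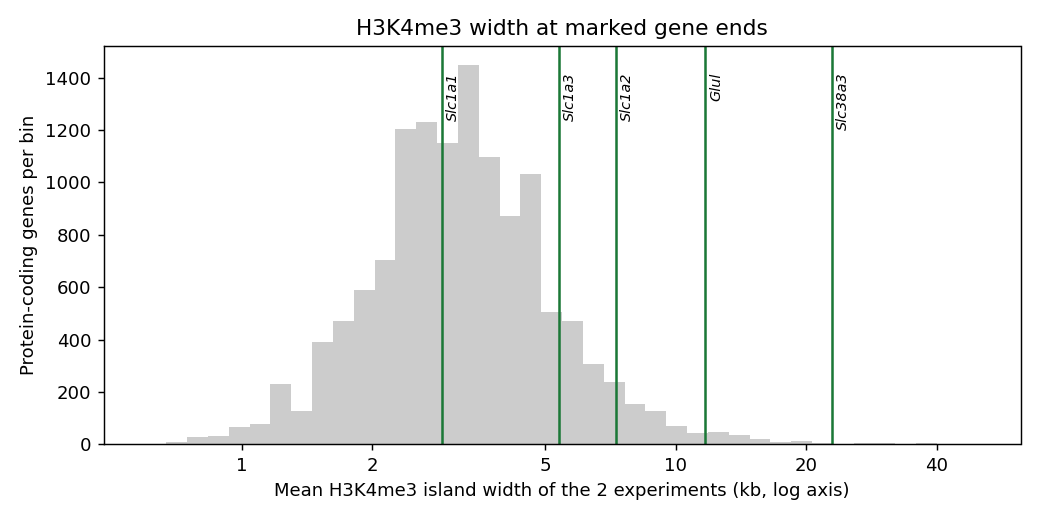
Number of protein-coding genes per bin of H3K4me3 island width at a marked gene end, mean of the 2 experiments in kb on a log axis, with the 5 marked genes as green lines. Slc1a1 at 2.9 kb lies near the peak of the distribution, Slc1a3 at 5.4 kb and Slc1a2 at 7.3 kb in its upper flank, and Glul at 11.7 kb and Slc38a3 at 23 kb in its tail.

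The same H3K4me3 stretch was found in both experiments to different degrees. In the gene and 50 kb around, the length shared by the experiments divided by the length in either was 0.95 for Slc7a11, 0.921 for Slc1a2, 0.8 for Glul, 0.759 for Slc38a3, 0.738 for Slc1a3 and 0.53 for Slc1a1. For H3K4me1 it was 0.858 for Slc38a3, 0.595 for Slc1a2, 0.573 for Slc1a1, 0.242 for Glul, 0.193 for Slc1a3 and 0 for Slc7a11. Most of the H3K4me1 length at Glul, Slc1a3 and Slc7a11 was thus listed in Exp1 alone. At Slc1a1 the H3K4me3 value of 0.53 also counts part of an island beginning 47.2 kb beyond the gene in Exp1 and 49.4 kb in Exp2. Inside Slc1a1, H3K4me3 covered 2.37% of the gene in each experiment.

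Genes with the most similar marks were sought by the distance between 8 values, the log2 of the width in kb plus 1 of the widest island at an end for each mark and experiment. The widest island could lie at either end. For Slc1a3, H3K4me3 at the upper end was thus paired with the 4.2 kb H3K4me1 island of Exp1 at the lower end. Nearest to Slc1a3 were Ubl3 (distance 0.156) and Arrdc3 (0.199), and nearest to Slc1a2 were Zfp385b (0.214) and Mms19 (0.239). Nearest to Glul were Tle1 (0.363) and Pex5l (0.576), and nearest to Slc1a1 were Arglu1 (0.108) and Grpel1 (0.112). Slc38a3 was nearest to its neighbour Gnat1 (0.759), with which it shares islands, and then to Epb41 (1.03). Slc7a11 shares its pattern of no island at an end with 2596 other genes at distance 0, so no pair stands out.

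The wider glutamate and glutamine pathway was described by 29 further genes. H3K4me3 was at an end of 24, H3K4me1 of 22, H3K27me3 of 3 and H3K9me3 of 1, to be read against the 58.6%, 54.6%, 23.3% and 13.4% of all genes. H3K4me3 without H3K27me3 was the state of 22, but its share over all genes was not counted, so this number has no background. The marked genes had a median mean H3K4me3 width of 3.15 kb, from 1.2 kb at Slc25a13, which encodes a mitochondrial aspartate-glutamate carrier, to 10.2 kb at Slc25a22, which encodes a mitochondrial glutamate carrier. Both were singled out for their widths.

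All 4 other genes of the Slc1 family had H3K4me3 and H3K4me1 at an end, against 58.6% and 54.6% of all genes for each mark. The share of all genes with both was not counted. Slc1a7, whose product EAAT5 is found in photoreceptors and bipolar cells, had H3K4me3 islands of 6 and 6.6 kb in Exp1 and Exp2 and H3K4me1 islands of 37.8 and 7.6 kb. The neutral amino acid transporter gene Slc1a4 had H3K4me3 over 6.4 and 2.4 kb, and Slc1a5, which transports glutamine among others, over 2.6 and 2.8 kb. Slc1a6, the gene of the cerebellar transporter EAAT4, had all 4 marks, with H3K4me3 over 3.2 and 1.8 kb and H3K27me3 over 155 and 365 kb. Its H3K4me3 and H3K27me3 did not meet at the same end in both experiments.

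Other pathway genes were named because their state was not H3K4me3 without H3K27me3. Asns, asparagine synthetase, had both marks at the same end, with H3K27me3 islands of 1030 and 175 kb. Slc17a6, the vesicular transporter VGLUT2 and a ganglion cell marker, had H3K27me3 and no H3K4me3. Slc17a8, the vesicular transporter VGLUT3, had 0 of the 4 marks at an end. Slc25a18, a mitochondrial glutamate carrier, had H3K4me1 alone. Slc38a5, a glutamine transporter, had repressive islands in Exp2 alone.

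**Figure D5:**
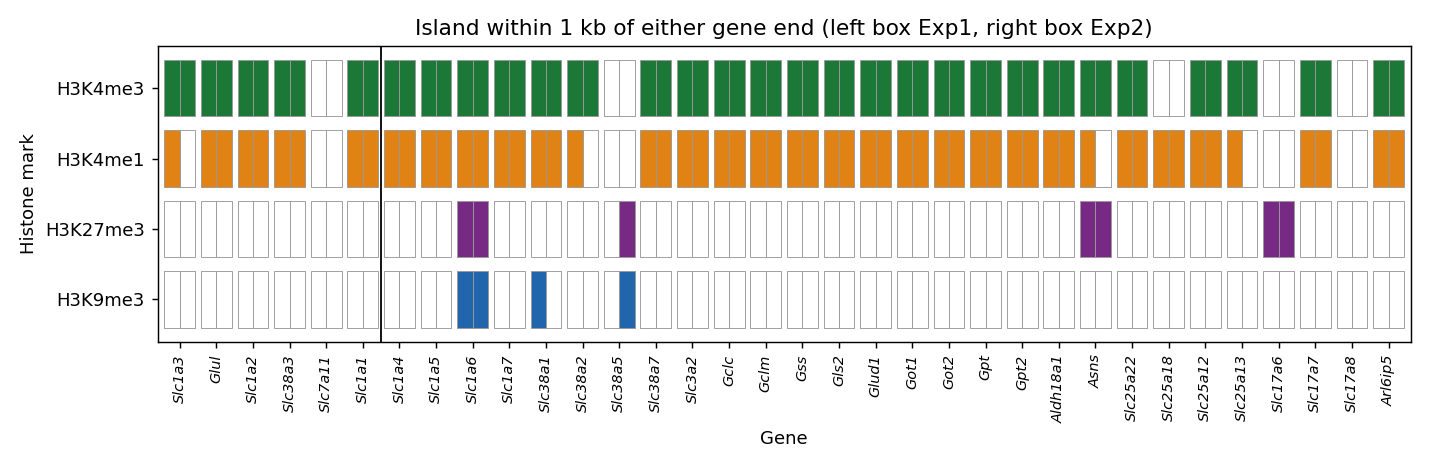
Presence (filled) or absence (open) of an island within 1 kb of either end of each gene, with Exp1 as the left and Exp2 as the right box, for the 6 genes left of the line and the further pathway genes right of it, of which 1 is not drawn. H3K4me3 was found in both experiments at 5 of the 6 and at 24 of the 29 genes, and H3K27me3 at 0 and 3.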

How the data were processed

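Samples were grouped by mark from their titles, with the experiment number as replicate. Nothing says that the experiments used separate animals, so their spread may be technical. The 2 input libraries were not analysed here. For every ChIP library there is a list of islands in which the authors deposited a p-value per island, with no statement whether it was adjusted. Per the submitters' processing notes, the build was mm10 and the tools included SICER, bedtools 2.17, SAMtools 1.3.1, BWA 0.7.5a and FastQC. The settings of SICER were not given in the sources used here. It joins windows across gaps, and whether the wider steps of the repressive lists changed their overlap with genes was not tested.

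Gene positions came from the RefSeq gene table (GRCm38.p6, same coordinates as mm10), which gives no strand. Starts and strand came from RefSeq promoter entries. Overlap needed 1 bp. Overlap code was tested on simulated islands. Distal H3K4me1 regions were stretches covered in both experiments, more than 2.5 kb away from any end of a lncRNA or protein-coding gene. Python 3.11.15, numpy 2.4.6 and pandas 2.3.3 were used.

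The 6 genes, the pathway and marker lists and the motifs were chosen with earlier results of these data known. Named beside the 6 were the other Slc1 genes, up to 8 pathway genes of another state (1 of them is not reported here), protein-coding genes sharing an end island, and the 2 genes most alike in 8 values. A permutation test over 2 experiments per mark cannot pass 0.05, so none was made. Alternatives were each experiment alone, either experiment, windows of 500 bp and 2.5 kb, 50% of the window covered, the stronger islands alone (p-value no higher than the list's median), the start end alone, starts of the promoter table, 25 and 100 kb around, a 1 kb distance for distal regions, joined or shared stretches, and a replicate block, in which marks were combined inside an experiment first.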

Additional observations from a re-analysis of the deposited data

How the results depend on the processing

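H3K4me3 at an end stayed at 5 of the 6 genes, except with the start end alone and with promoter table starts. There it was at 4 of 5, since Slc38a3 has no promoter entry, and with promoter table starts Slc7a11 took the place of Slc1a2. H3K27me3 and H3K9me3 were at 0 genes under all alternatives run, and H3K4me1 (4) ran from 3 to 5. With a replicate block, which combines marks inside an experiment first, H3K4me3 and H3K27me3 met at 0 of the 6 genes and 1 of the 29 pathway genes, as without it. Pathway genes with H3K9me3, 1 in the first count, were 3 in either experiment, 2 in each experiment alone, and 0 of 22 with the start end alone or promoter table starts. Those with both marks, 1 at first, were 0 among the stronger islands (p-value no higher than the list's median), 2 in either experiment, and 2 without Exp1 against 1 without Exp2. The median H3K4me3 width of 7.3 kb was 7 kb for the stretch covered in both experiments. The median of distal H3K4me1 regions, 1.5 per gene, was 0.5 with 25 kb around, 2.5 with 100 kb around, and from 1.5 to 2.5 with 1 experiment alone. Within 100 kb around, the mean share under H3K27me3 was 1.97%, against 0.742% with 50 kb, and under H3K9me3 4.98%, against 1.88%. Without Exp1 and without Exp2, the shares with 50 kb were 0% and 1.48% for H3K27me3, all of it from Exp1, and 1% and 2.77% for H3K9me3. The H3K9me3 share was 0% among the stronger islands. The causes were not tested. The unknown depth limits every absence to what the authors' calling could list.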
